A study of Mus musculus with 6 samples.

Results

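The TNF family of ligands and receptors was followed in sorted mouse spleen CD4 T cells through 10 genes, taken by symbol and not by a cutoff on their values. Of the 47729 genes in the count table, these were the receptor genes Tnfrsf4, Tnfrsf9, Tnfrsf18, Tnfrsf1b and Cd27, and the ligand genes Tnfsf8, Tnfsf11, Cd40lg, Fasl and Tnf. All 10 passed the filter on low counts. OFF samples came from RBPJind mice, in which doxycycline (Dox) induces RBPJ, whose Dox lasted 3 weeks and was then withdrawn for 1 week, and their labels read Notch unresponsive. ON samples came from RBPJind mice given Dox in their water for 4 weeks and are called Notch responsive. Both were sorted as CD3+CD4+CD25-CD45RBint, described as immature naive cells. WT samples came from wild type mice and were sorted as CD3+CD4+CD25-CD45RBhi, described as mature naive cells. Dox is the treatment named for every sample, WT included, for which no duration is given. OFF and ON therefore differ in their last week of Dox, while either of them differs from WT in both genotype and CD45RB gate, and those cannot be told apart. Each group had 2 samples, with no statement that the animals were different. Each p-value rests on the spread between samples within the 3 groups, estimated in 1 fit, and that spread may be technical.

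TNF family ligands are mostly trimers on the cell surface that bind receptors on a neighbouring cell. The receptors gather TRAF adaptor proteins or, where they carry a death domain, FADD and caspases, and so switch on NF-kB, other kinase pathways or cell death. On CD4 T cells, OX40, 4-1BB, GITR, TNFR2 and CD27 act as costimulatory receptors beside the T cell receptor, and several of them are known to be high on regulatory T cells. The ligands on CD4 T cells carry help to other cells, as CD40 ligand does to B cells, or kill, as Fas ligand does.

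Counts assigned to genes ranged from 17025551 to 19319183 per library. Levels are TMM-scaled CPM, counts divided by the scaled library total. Rbpj stood at 29.8 and 31.7 CPM in OFF, against 98.2 and 79.6 CPM in ON, lower in OFF by edgeR's quasi-likelihood test (log2 fold change -1.53 ± 0.14 SE, adjusted p = 0.00195). Dtx1, a Notch target gene, stood at 195 and 145 CPM in OFF, against 492 and 562 CPM in ON (-1.63 ± 0.16 SE on the log2 scale, adjusted p = 0.00234). WT stood at 36.1 and 35.3 CPM for Rbpj and at 198 and 198 CPM for Dtx1. By the same test, Rbpj was higher in ON than in WT (1.32 ± 0.14 SE on the log2 scale, adjusted p = 0.000535). So was Dtx1 (1.41 ± 0.15 SE, adjusted p = 0.000658). OFF was not called against WT for Rbpj (-0.22 ± 0.14 SE, adjusted p = 0.422) or Dtx1 (-0.22 ± 0.15 SE, 0.457). Cd4 lay between 604 and 702 CPM in every library. Among the 8 CD4 T cell identity genes, Lat was higher in ON than in WT (log2 fold change 0.44 ± 0.12 SE, adjusted p = 0.041). Cd5 was higher in OFF than in WT (0.57 ± 0.14 SE, 0.0443), though limma-voom called 0 of the 8 there. No other gene of the list had an adjusted p under 0.05, where 14.8% and 6.83% of all tested genes did. Cd3g, at 534 and 1060 CPM in ON and 473 and 447 CPM in WT, was not called.

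Of the 5 receptor genes, 4 were higher in ON than in WT (Tnfrsf4, Tnfrsf9, Tnfrsf18 and Tnfrsf1b) and 3 were higher in OFF than in WT (the same without Tnfrsf18). Among the 5 ligand genes, Tnfsf11 was higher in ON and in OFF than in WT, Fasl in ON, Tnfsf8 in OFF, and Cd40lg was lower in ON. Between ON and WT, 7 of the 10 members were called at an adjusted p under 0.05 (edgeR's quasi-likelihood test, Benjamini-Hochberg adjustment over all 15780 genes tested), 6 higher and 1 lower in ON. Of all tested genes 14.8% were called, 9.68% higher and 5.16% lower. Between OFF and WT, 5 members were called, all higher in OFF, against 6.83% of all tested genes (4.70% higher and 2.14% lower). Between OFF and ON 1 member was called, Tnfrsf4, lower in OFF, against 1.03% of all tested genes (0.602% higher and 0.425% lower). In that comparison 4 of the 10 had an unadjusted p under 0.05, beside 3008 of the 15780 tested genes. With upper quartile scaling, the genes called in ON against WT divided into 1272 higher and 1091 lower, in place of 1527 higher and 815 lower. The members' median log2 fold change was 0.02 in OFF against ON, 1.00 in ON against WT and 0.56 in OFF against WT, and over all tested genes it was 0.00, -0.02 and 0.01 in the same order. Members whose libraries did not overlap between groups numbered 5 of 10 in OFF against ON, 9 in ON against WT and 8 in OFF against WT, beside 46.7%, 59.9% and 55.7% of all tested genes. In bulk samples, fewer cells of a type and less RNA per cell cannot be told apart. The comparisons with WT share its 2 libraries.

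**Figure D1:**
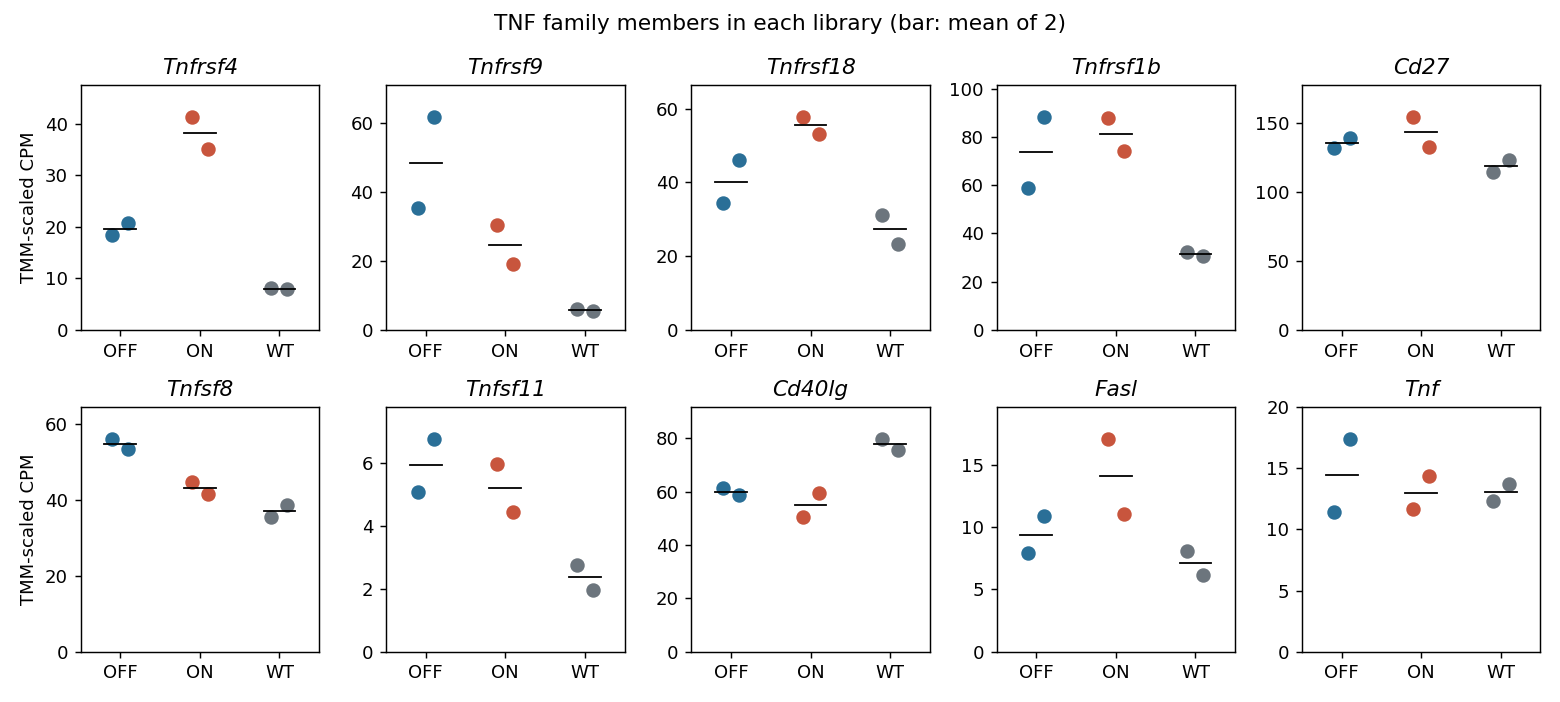
TMM-scaled CPM (vertical axis, from 0, with its own scale in each panel) of the 10 members in the 2 OFF, 2 ON and 2 WT libraries; points are libraries and bars are means of 2. Tnfrsf4 is highest in ON, at 41.3 and 35.1 CPM, while Tnfrsf9 is highest in OFF, at 35.3 and 61.8 CPM.

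Of the 10 members, 5 lie on chromosome 4, among 9 family genes listed there. Tnfrsf4 (GRCm38 chr4:156013843-156016612, plus strand) and Tnfrsf18 (chr4:156026164-156028895, plus strand) are neighbours with 9551 bases between them. Tnfrsf9 (chr4:150914562-150946102, plus strand) overlaps Camta1 on the other strand, and Tnfrsf18 overlaps the antisense gene Gm16008, so that without a stated strand setting their reads may be shared. Tnfrsf1b lies at chr4:145213463-145246870 on the minus strand. The stretches just before the RefSeq start sites of the 3 receptor genes with the highest folds over WT are given here because these genes were higher together in ON than in WT, from RefSeq on GRCm38.p6 and trimmed to bases outside annotated exons. They cover chr4:156013611-156013694 (plus strand) for Tnfrsf4, chr4:150919905-150920154 (plus strand, inside an intron of a longer Tnfrsf9 transcript) for Tnfrsf9 and chr4:145246871-145247120 (minus strand) for Tnfrsf1b. Capitals mark the letters GGAAAA (an NFAT core) or GGGCGG (a GC box) on either strand, and the Tnfrsf4 stretch holds neither.
Tnfrsf4: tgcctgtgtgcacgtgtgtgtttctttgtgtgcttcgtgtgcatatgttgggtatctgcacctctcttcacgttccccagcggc
Tnfrsf9: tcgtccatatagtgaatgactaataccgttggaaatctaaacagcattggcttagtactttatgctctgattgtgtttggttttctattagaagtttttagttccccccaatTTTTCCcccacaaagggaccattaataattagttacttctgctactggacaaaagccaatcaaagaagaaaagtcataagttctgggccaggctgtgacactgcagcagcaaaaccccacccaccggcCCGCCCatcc
Tnfrsf1b: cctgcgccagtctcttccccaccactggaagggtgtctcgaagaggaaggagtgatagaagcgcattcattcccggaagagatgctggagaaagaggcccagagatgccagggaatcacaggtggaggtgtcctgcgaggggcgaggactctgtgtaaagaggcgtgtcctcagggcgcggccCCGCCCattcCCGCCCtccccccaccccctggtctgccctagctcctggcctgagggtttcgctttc
Over the 250 bases before the start site, 5 motifs were looked for on both strands: TGGGAA (an RBPJ core), TGANTCA (AP-1), an NF-kB consensus of 10 bases, GGAAAA and GGGCGG. The promoter table held 9 of the 10 members in 10 windows, since Tnfrsf9 has a second start site. GGAAAA was found in 5 of the 10 windows and in 20.4% of all 32841 windows of that length, and GGGCGG in 4 of the 10 windows and in 32.7% of all windows. The RBPJ core, the AP-1 motif and the NF-kB consensus were each found in 1 member window, the second one of Tnfrsf9 (chr4:150927749-150927998), and in 21.6%, 6.75% and 7.25% of all windows. There, the RBPJ core overlapped the NF-kB match.

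Tnfrsf4 encodes OX40, a costimulatory receptor induced on activated T cells. It stood at 18.4 and 20.7 CPM in OFF, at 41.3 and 35.1 CPM in ON and at 8.13 and 7.85 CPM in WT. The 3 groups did not overlap, with OFF between ON and WT, and each pair of groups differed by the test. In OFF, Tnfrsf4 was 1.95-fold below its ON level (log2 fold change -0.97 ± 0.15 SE, adjusted p = 0.0219). In ON it was 4.78-fold above WT (log2 fold change 2.26 ± 0.16 SE, adjusted p = 7.24e-05). In OFF it was 2.44-fold above WT (log2 fold change 1.29 ± 0.17 SE, adjusted p = 0.00254). Both differences from WT were called under all 16 alternatives. The call between OFF and ON was lost without OFF 1 (adjusted p = 0.109), without WT 1 (0.0548), without WT 2 (0.0713) and in a fit of the 4 OFF and ON libraries alone (0.0631), with log2 fold changes from -1.09 to -0.84 over all alternatives.

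Tnfrsf9 encodes 4-1BB (CD137), a costimulatory receptor that is also known on activated regulatory T cells. It stood at 35.3 and 61.8 CPM in OFF, at 30.3 and 19.0 CPM in ON and at 6.04 and 5.58 CPM in WT. Both OFF libraries lay above both ON libraries, and all 4 lay above WT, but the OFF libraries were far apart. In OFF, Tnfrsf9 was 8.35-fold above WT (log2 fold change 3.06 ± 0.34 SE, adjusted p = 0.00229), under every alternative run. In ON it was 4.24-fold above WT (log2 fold change 2.08 ± 0.34 SE, adjusted p = 0.00708), a call lost without WT 1 (adjusted p = 0.0701) or WT 2 (0.0815). Between OFF and ON its log2 fold change was 0.98 ± 0.29 SE and not called (adjusted p = 0.138), although it was called by DESeq2 (adjusted p = 0.0202) and without OFF 1 (0.0365).

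The OX40 gene had its highest mean level in ON and the 4-1BB gene in OFF. The ratio of Tnfrsf9 to Tnfrsf4 CPM was 1.92 and 2.99 in OFF, 0.734 and 0.542 in ON, and 0.743 and 0.711 in WT. Per kilobase of exon the same ratio was 0.96 and 1.50 in OFF, 0.368 and 0.272 in ON, and 0.372 and 0.357 in WT. The OFF libraries lay apart from the other 4, while 1 ON value lay between the WT values and the other below them. These genes were set against each other after their values were seen, so the ratio is a description with no test.

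Tnfrsf18 encodes GITR, a costimulatory receptor that is abundant on regulatory T cells. It stood at 34.4 and 46.0 CPM in OFF, at 57.8 and 53.1 CPM in ON and at 31.3 and 23.4 CPM in WT. The libraries ran in the same order as for its neighbour Tnfrsf4, ON above OFF above WT with no overlap, over a smaller range. It was 2.03-fold higher in ON than in WT (log2 fold change 1.02 ± 0.18 SE, adjusted p = 0.00712), a call lost without WT 2 (adjusted p = 0.0981). The comparisons of OFF with ON (-0.46 ± 0.18 SE on the log2 scale, adjusted p = 0.201) and of OFF with WT (0.56 ± 0.18 SE, adjusted p = 0.109) were not called. Without OFF 1 the difference between OFF and WT was called (adjusted p = 0.0428).

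Tnfrsf1b encodes TNFR2, the TNF receptor without a death domain. It stood at 59.0 and 88.3 CPM in OFF, at 87.8 and 74.3 CPM in ON and at 32.1 and 30.7 CPM in WT. OFF and ON overlapped, and every library of both lay above WT. It was 2.58-fold higher in ON than in WT (log2 fold change 1.37 ± 0.19 SE, adjusted p = 0.00222), under all 16 alternatives. It was 2.35-fold higher in OFF than in WT (log2 fold change 1.23 ± 0.19 SE, adjusted p = 0.00568), a call lost without WT 1 (adjusted p = 0.0503) or WT 2 (0.058). OFF against ON gave a log2 fold change of -0.14 ± 0.18 SE (adjusted p = 0.719), and without OFF 1 it was 0.14.

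Cd27, which encodes a costimulatory receptor that naive T cells already carry, was the most abundant receptor of the 5. It stood at 132 and 139 CPM in OFF, at 155 and 133 CPM in ON and at 114 and 124 CPM in WT. OFF and ON overlapped, and both lay above WT by small margins. None of the 3 comparisons was called (log2 fold changes -0.08 ± 0.12 SE for OFF against ON, 0.27 ± 0.12 SE for ON against WT and 0.19 ± 0.12 SE for OFF against WT; adjusted p from 0.164 to 0.745). Cd27 overlaps Vamp1 on the other strand and may share reads with it.

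**Figure D2:**
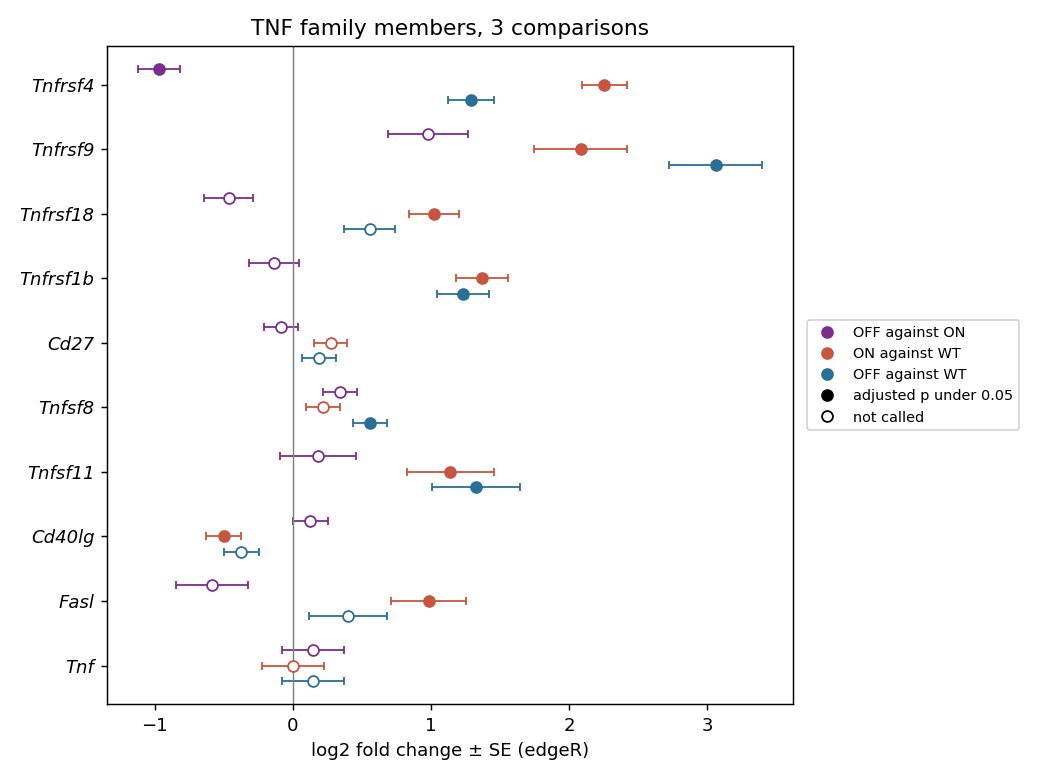
Log2 fold change (horizontal axis) ± SE of each member (down the page, receptors above ligands) in OFF against ON, ON against WT and OFF against WT; filled points have an adjusted p under 0.05. Tnfrsf4 at -0.97 is the one filled point of OFF against ON, and Cd40lg at -0.50 in ON against WT is the one filled point below 0 in the comparisons with WT.

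Of the 5 ligand genes, 3 were called in ON against WT and 2 in OFF against WT. Of all tested genes, 14.8% and 6.83% were called in these comparisons. None of the ligand calls held under all 16 alternatives. Cd40lg encodes CD40 ligand, through which helper T cells drive B cell responses. It stood at 61.3 and 58.7 CPM in OFF, at 50.3 and 59.6 CPM in ON and at 79.8 and 75.6 CPM in WT. Every OFF and ON library lay below both WT libraries. Cd40lg was 1.41-fold lower in ON than in WT (log2 fold change -0.50 ± 0.13 SE, adjusted p = 0.0284), and -0.37 ± 0.13 SE in OFF against WT was not called (adjusted p = 0.117). The ON call was lost without ON 1 (adjusted p = 0.0978), WT 1 (0.217) or WT 2 (0.179) and with no filter on low counts (0.0992). In a fit of the 4 OFF and WT libraries alone, OFF was called lower (adjusted p = 0.0375).

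Tnfsf11 encodes RANKL, known for driving osteoclasts and for T cell contact with dendritic cells. It was the least abundant member, with 88 and 113 counts in OFF, 117 and 90 counts in ON and 46 and 34 counts in WT. In CPM this was 5.08 and 6.79 in OFF, 5.98 and 4.46 in ON and 2.75 and 1.98 in WT. OFF and ON overlapped, and both lay above WT. It was 2.21-fold higher in ON than in WT (log2 fold change 1.14 ± 0.32 SE, adjusted p = 0.0403) and 2.51-fold higher in OFF than in WT (1.33 ± 0.32 SE, adjusted p = 0.0386). The ON call was lost without ON 1 (adjusted p = 0.125), WT 1 (0.126) or WT 2 (0.266), and the OFF call without OFF 2 (0.221), WT 1 (0.142) or WT 2 (0.191). Limma-voom called neither (adjusted p = 0.0533 for ON and 0.0617 for OFF against WT), and the OFF call was also lost with a mean CPM of at least 1 (0.0584).

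Tnfsf8 encodes the ligand of CD30. It stood at 56.2 and 53.4 CPM in OFF, at 44.9 and 41.6 CPM in ON and at 35.6 and 38.8 CPM in WT. No groups overlapped, and OFF was the highest and WT the lowest. It was 1.47-fold higher in OFF than in WT (log2 fold change 0.56 ± 0.12 SE, adjusted p = 0.0296), while 0.34 ± 0.12 SE in OFF against ON (adjusted p = 0.175) and 0.22 ± 0.12 SE in ON against WT (adjusted p = 0.271) were not called. The call was lost without OFF 1 (adjusted p = 0.0907), OFF 2 (0.123), WT 1 (0.27) or WT 2 (0.12).

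Fasl encodes Fas ligand, which kills Fas-bearing cells. It stood at 7.91 and 10.9 CPM in OFF, at 17.1 and 11.1 CPM in ON and at 8.07 and 6.16 CPM in WT. ON lay above both other groups, with ON 2 just above OFF 2, and OFF overlapped WT. It was 1.98-fold higher in ON than in WT (log2 fold change 0.98 ± 0.27 SE, adjusted p = 0.0379), a call lost without ON 1 (adjusted p = 0.144), WT 1 (0.109) or WT 2 (0.248) and with limma-voom (0.0535). The comparisons of OFF with ON (-0.58 ± 0.26 SE on the log2 scale, adjusted p = 0.263) and of OFF with WT (0.40 ± 0.28 SE, adjusted p = 0.466) were not called.

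Tnf, the inflammatory cytokine that names the family, stood at 11.4 and 17.4 CPM in OFF, at 11.7 and 14.4 CPM in ON and at 12.3 and 13.7 CPM in WT. All 3 groups overlapped. No comparison was called, with log2 fold changes of 0.15 ± 0.22 SE in OFF against ON, -0.00 ± 0.22 SE in ON against WT and 0.15 ± 0.23 SE in OFF against WT (adjusted p from 0.76 to 0.998). Tnf lies between Lta, 1157 bases away, and Ltb, 3060 bases away, on chromosome 17.

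Between genes, levels were compared per kilobase of exon. In OFF, Cd27 averaged 58.3 and Cd40lg 48.0 CPM per kb, and Tnfrsf18 followed at 26.4 CPM per kb. In ON the same 3 led, with Cd27 at 61.8, Cd40lg at 43.9 and Tnfrsf18 at 36.4 CPM per kb. In WT, Cd40lg led at 62.2 CPM per kb, ahead of Cd27 at 51.1 and Tnfrsf18 at 17.9 CPM per kb. Tnfsf11 was lowest in all 3 groups, at 2.66 CPM per kb in OFF, 2.33 in ON and 1.06 in WT. The receptors changed places below the leaders. Tnfrsf9 averaged 17.8 CPM per kb in OFF, 9.06 in ON and 2.13 in WT, or rank 5, 7 and 9 of the 10. Tnfrsf4 averaged 14.3 CPM per kb in OFF, 28.0 in ON and 5.85 in WT, or rank 7, 4 and 7. In OFF the libraries of Tnfrsf18, Tnfrsf1b, Tnfrsf9, Tnfsf8 and Tnfrsf4 overlapped from each gene to the next. In ON those of Tnfsf8, Tnfrsf9, Tnf and Fasl did so, and in WT those of Tnfrsf1b and Tnf.

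The partners of the members were mostly low in these cells. Tnfsf4, the ligand of OX40, stood at 2.20 and 2.28 CPM in OFF, at 0.869 and 0.942 CPM in ON and at 0.239 and 0.233 CPM in WT. OFF, ON and WT did not overlap, so that the OX40 ligand gene was highest in OFF, where the OX40 gene was below its ON level. Tnfsf4 was higher in OFF than in WT (log2 fold change 3.21 ± 0.50 SE, adjusted p = 0.00614), a call lost without WT 1 (adjusted p = 0.0755) or WT 2 (0.0704), and was not called in OFF against ON (1.30 ± 0.36 SE, adjusted p = 0.114) or in ON against WT (1.91 ± 0.59 SE, adjusted p = 0.0583). Tnfsf9, the ligand of 4-1BB, lay between 1.16 and 1.89 CPM in all libraries and was called in no comparison. Tnfsf18 and Cd70, the ligands of GITR and CD27, were at or below 0.359 CPM in every library and did not pass the filter. Of the receptors for the member ligands, Tnfrsf8 (CD30) lay between 0.299 and 1.69 CPM, Tnfrsf11a (RANK) between 0.12 and 1.02 CPM and Cd40 between 0.581 and 2.35 CPM. Fas lay between 14.5 and 19.3 CPM, Tnfrsf1a (TNFR1) between 27.3 and 38.4 CPM and Lta, a ligand shared by both TNF receptors, between 6.90 and 9.71 CPM. No comparison was called for any of these 6 genes. Tnfrsf11a came closest, in ON against WT (log2 fold change 2.40 ± 0.72 SE, adjusted p = 0.0504), with 20 and 12 counts in ON and 2 and 3 counts in WT.

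Of 23 other receptor genes, 19 were tested, and 0 were called in OFF against ON, by DESeq2 and limma-voom as well, with 4 at an unadjusted p under 0.05. In ON against WT, 3 of the 19 were called, where 14.8% of all tested genes were, so the count is near the background. All 3 were lower in ON: Tnfrsf22 at 4.19 and 8.13 CPM in ON, against 15.6 and 11.7 CPM in WT (log2 fold change -1.14 ± 0.29 SE, adjusted p = 0.0281), Tnfrsf10b (-1.07 ± 0.31 SE, 0.0452) and Tnfrsf26 (-0.60 ± 0.17 SE, 0.0461). Tnfrsf10b encodes the mouse receptor for TRAIL that carries a death domain, and Tnfrsf22 encodes a TRAIL receptor without one. In OFF against WT, 2 of the 19 were called, where 6.83% of all tested genes were, and both were higher: Tnfrsf13c, the BAFF receptor best known on B cells, at 1.96 and 3.31 CPM in OFF, against 0.478 and 0.349 CPM in WT (2.65 ± 0.51 SE, 0.0166), and Tnfrsf13b, which encodes the BAFF and APRIL receptor TACI (0.77 ± 0.18 SE, 0.0349). Each of these 5 calls was lost without WT 1 and without WT 2, at adjusted p from 0.0967 to 0.256, those in ON also without ON 1 and those in OFF also without OFF 2 (adjusted p from 0.0813 to 0.183). Without OFF 1, Tnfrsf10b (adjusted p = 0.0535) and Tnfrsf26 (0.0515) in ON against WT were lost too. Tnfrsf10b was also lost by DESeq2 (adjusted p = 0.0594), the older quasi-likelihood method (0.0509), no filter on low counts (0.0832) and the 4 ON and WT libraries alone (0.0546), and Tnfrsf26 with no filter (0.121). Tnfrsf13b was also lost with upper quartile scaling (adjusted p = 0.0536), a mean CPM of at least 1 (0.0537) and limma-voom (0.0528). The directions depended on the setting too: 1 higher and 2 lower were called in ON against WT by DESeq2, 1 and 0 without ON 1, 3 and 3 without ON 2, 1 and 1 without OFF 1 and 1 and 3 without OFF 2. In OFF against WT 2 higher and 2 lower were called in the fit of 4 libraries, and 2 and 1 without ON 1 or ON 2. The most abundant were Tnfrsf14 (HVEM), at 52.7 and 39.7 CPM in OFF, 29.7 and 38.9 CPM in ON and 34.6 and 42.5 CPM in WT, and Tnfrsf1a, neither of them called.

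Of 13 other ligand genes, 7 were tested, and 0 were called in OFF against ON, by DESeq2 and limma-voom as well, with 2 at an unadjusted p under 0.05. Tnfsf10, which encodes TRAIL, stood at 31.7 and 42.1 CPM in OFF, at 42.0 and 32.3 CPM in ON and at 22.8 and 19.8 CPM in WT. Tnfsf10 was higher in ON than in WT (log2 fold change 0.80 ± 0.19 SE, adjusted p = 0.0213) and in OFF than in WT (0.79 ± 0.19 SE, adjusted p = 0.0366). Tnfsf14, which encodes LIGHT, the ligand of HVEM, stood at 5.78 and 4.96 CPM in ON, against 1.79 and 1.40 CPM in WT (log2 fold change 1.75 ± 0.37 SE, adjusted p = 0.0153). In OFF it stood at 3.18 and 5.89 CPM, overlapping ON and above WT. It was not called in OFF against WT (1.50 ± 0.39 SE, adjusted p = 0.0509) or in OFF against ON (-0.25 ± 0.31 SE, adjusted p = 0.707). With Tnfsf4 in OFF, 2 of 7 were called in each comparison with WT, all higher. Of all tested genes 14.8% were called in ON against WT and 6.83% in OFF against WT. In OFF against WT, DESeq2 called 3 of these ligand genes and limma-voom 1. The Tnfsf10 and Tnfsf14 calls were lost without WT 1 and without WT 2, the Tnfsf10 calls also without ON 1 in ON and without OFF 2 in OFF (adjusted p from 0.0673 to 0.242 in all). Tnfsf10 in OFF was also lost with upper quartile scaling (adjusted p = 0.0514), a mean CPM of at least 1 (0.0664) and limma-voom (0.0591). Ltb, which encodes the membrane-bound partner of lymphotoxin alpha, was the most abundant, at 178 and 180 CPM in OFF, 147 and 172 CPM in ON and 176 and 186 CPM in WT, and was not called.

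**Figure D3:**
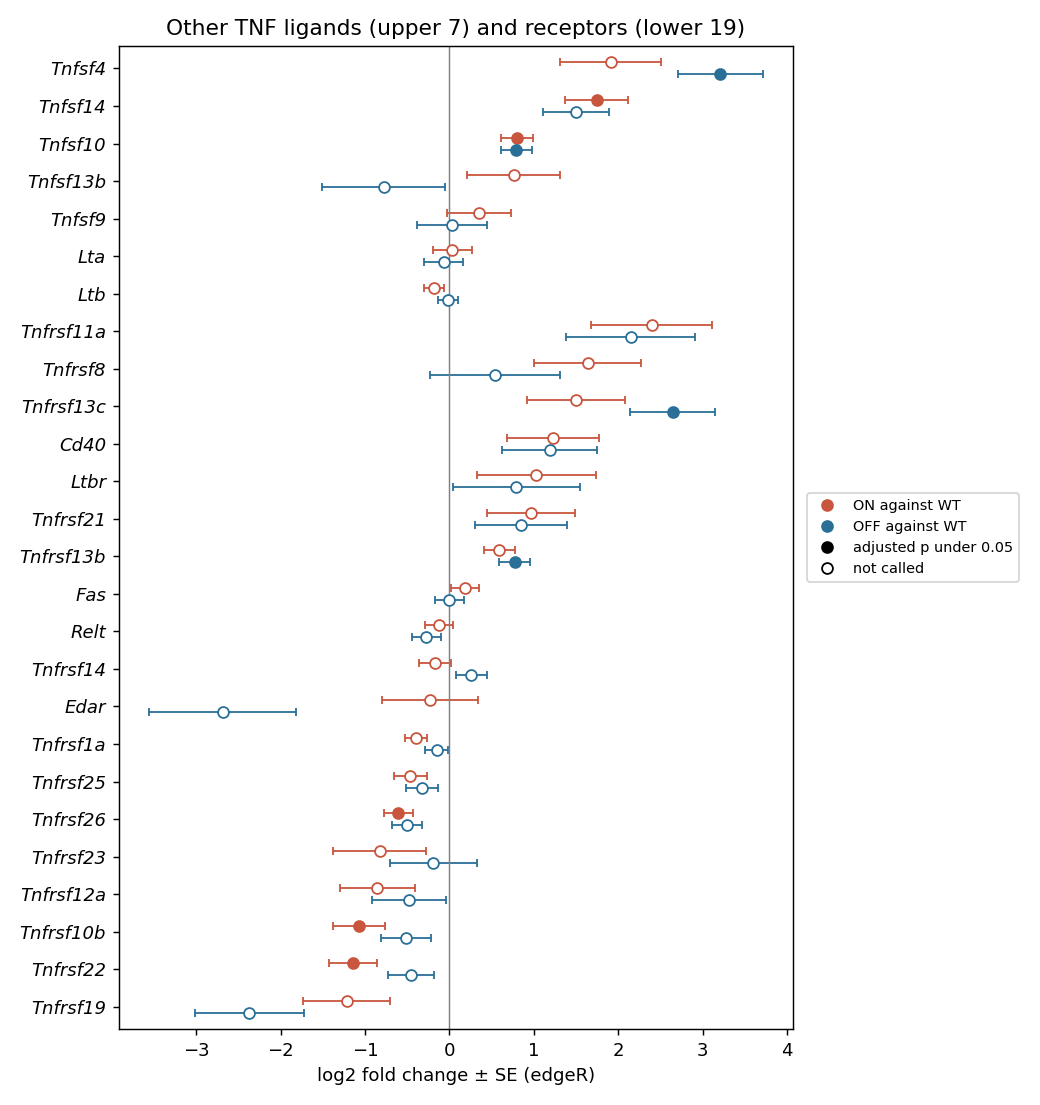
Log2 fold change (horizontal axis) ± SE of the other TNF ligand genes (upper 7) and receptor genes (lower 19) that passed the filter, in ON against WT and OFF against WT; filled points have an adjusted p under 0.05. Tnfsf4 at 3.21 and Tnfrsf13c at 2.65 in OFF are the filled points farthest to the right, and the 3 filled receptor points in ON lie below 0.

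Downstream of the receptors lie the NF-kB transcription factors and their inhibitors. Of 11 genes of NF-kB subunits and inhibitors, 5 were called in ON against WT, all higher, where 14.8% of all tested genes were called. Nfkb2, the precursor subunit of the non-canonical pathway that OX40, 4-1BB and CD40 feed, stood at 57.4 and 63.6 CPM in OFF, at 77.4 and 69.4 CPM in ON and at 39.2 and 47.9 CPM in WT. It was higher in ON than in WT (log2 fold change 0.75 ± 0.14 SE, adjusted p = 0.00837), as were its partner Relb (0.67 ± 0.16 SE, 0.0212) and the inhibitor genes Nfkbie (0.63 ± 0.12 SE, 0.00882), Nfkbib (0.69 ± 0.14 SE, 0.0112) and Nfkbia (0.51 ± 0.12 SE, 0.0215). Relb was also called in OFF against WT (0.62 ± 0.16 SE, adjusted p = 0.0466). In OFF against ON 0 of 11 were called, by DESeq2 and limma-voom as well, and 3 had an unadjusted p under 0.05. Without WT 1, 0 of the 6 calls held (adjusted p from 0.114 to 0.365), and without WT 2 the call of Nfkb2 in ON held. The call of Relb was also lost without ON 1 (adjusted p = 0.0582) in ON, and without OFF 1 (0.0684) or OFF 2 (0.245) in OFF, and that of Nfkbia without ON 2 (0.0512). In OFF against WT, Relb was lost in 10 of 16 alternatives, among them RLE scaling (adjusted p = 0.0562), upper quartile scaling (0.068), no filter (0.0552), a mean CPM of at least 1 (0.0797) and limma-voom (0.0622). Nfkb1 at 205 to 286 CPM was the most abundant and was not called.

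Of 30 genes of receptor signalling (TRAF adaptors, kinases, caspases and their regulators), 2 were called in ON against WT, a smaller share than the 14.8% of all tested genes. Fadd, the death domain adaptor, stood at 16.6 and 17.6 CPM in ON, against 11.4 and 11.1 CPM in WT (log2 fold change 0.60 ± 0.16 SE, adjusted p = 0.0332). Birc3, the inhibitor of apoptosis protein cIAP2, stood at 126 and 134 CPM in ON, against 85.6 and 102 CPM in WT (log2 fold change 0.48 ± 0.13 SE, adjusted p = 0.0348). Both calls were lost without ON 2, WT 1 or WT 2 (adjusted p from 0.0693 to 0.309) and with upper quartile scaling (0.0529 for Fadd and 0.0611 for Birc3). Fadd was also lost by DESeq2 (adjusted p = 0.0535) and Birc3 with no filter (0.0589). In OFF against ON and in OFF against WT 0 of 30 were called, by DESeq2 and limma-voom as well, with 2 and 4 at an unadjusted p under 0.05. Ikbkb at 156 to 241 CPM and Cflar at 146 to 221 CPM were the most abundant and were not called.

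Markers of regulatory T cells were higher in ON and in OFF than in WT, as were Tnfrsf4, Tnfrsf9 and Tnfrsf1b. All 8 of the list (Foxp3, Il2ra, Ikzf2, Ikzf4, Ctla4, Nrp1, Lrrc32 and Izumo1r) were called higher in ON than in WT and in OFF than in WT, and 0 in OFF against ON by edgeR, DESeq2 or limma-voom, with 3 at an unadjusted p under 0.05. Their summed level was 325 and 530 CPM in OFF, 323 and 248 CPM in ON and 74.9 and 61.8 CPM in WT. Foxp3, the defining gene, stood at 36.6 and 78.7 CPM in OFF, at 38.0 and 30.8 CPM in ON and at 2.45 and 2.67 CPM in WT. Il2ra, which encodes the CD25 that the sort excluded, stood at 25.3 and 28.8 CPM in OFF, at 27.7 and 24.9 CPM in ON and at 4.19 and 4.65 CPM in WT. In OFF against ON, 7 of the 8 had a log2 fold change above 0 (median 0.48), while Tnfrsf4 (-0.97, called), Tnfrsf18 (-0.46), Tnfrsf1b (-0.14) and Cd27 (-0.08) lay below 0 and Tnfrsf9 (0.98) above it. OFF 2 was the highest library for 7 of the 8 markers and for Tnfrsf9 and Tnfrsf1b, and ON 1 was the highest for Ctla4, Tnfrsf4, Tnfrsf18 and Cd27. The part of these cells in the members' differences was not tested.

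**Figure D4:**
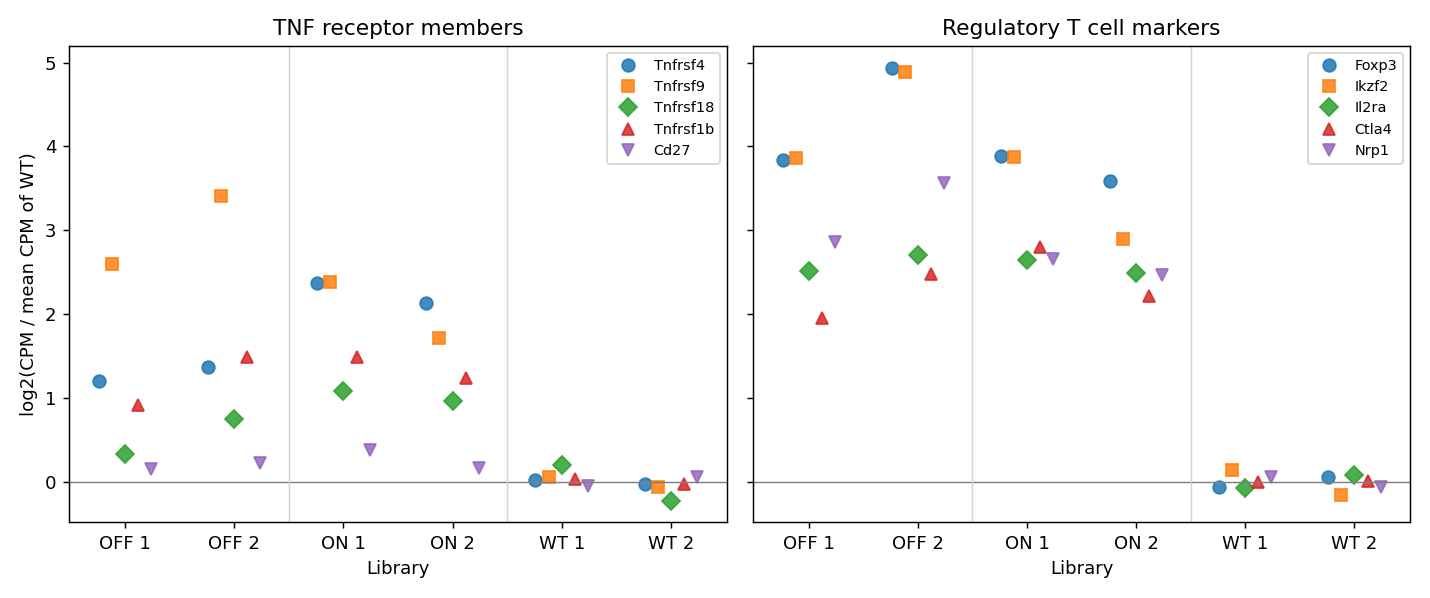
Log2 of CPM over the mean CPM of WT (vertical axis) in each library for the 5 receptor members (left) and 5 regulatory T cell markers (right). Tnfrsf9, Foxp3 and Ikzf2 are highest in OFF 2, whereas Tnfrsf4 is highest in ON 1.

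Some genes of other marker lists were called too. Of 10 memory and effector genes, 8 were called higher in ON than in WT and 8 in OFF than in WT, with summed levels of 407 and 817 CPM in OFF, 705 and 487 CPM in ON and 190 and 129 CPM in WT. Of 6 tested follicular helper genes, 4 were called higher in ON than in WT and 3 in OFF than in WT. In OFF against ON, Bcl6 was called higher, at 43.5 and 49.5 CPM in OFF, against 25.0 and 16.9 CPM in ON, and Il21 lower, at 1.16 and 2.40 CPM in OFF, against 10.1 and 7.04 CPM in ON. Of 10 B cell genes, 8 were called in OFF against WT, all higher, and 5 in ON against WT, 4 of them higher. The list summed to 212 to 256 CPM in OFF, 153 to 175 CPM in ON and 187 to 203 CPM in WT, most of it Ighm. Ighm, at 140 and 125 CPM in ON and 194 and 177 CPM in WT, was the gene called lower in ON. The sum was lower in ON than in WT as Ighm was, while the other 9 genes had a log2 fold change above 0 there. Of 8 tested myeloid and dendritic cell genes, 5 were called higher in ON than in WT and 4 in OFF than in WT, with sums of 66.4 to 76.3 CPM in OFF, 59.5 to 66.7 CPM in ON and 19.9 to 21.4 CPM in WT. Of 3 CD8 T cell genes 1 (Cd8a) and of 4 tested NK cell genes 1 (Eomes) were called higher in each comparison with WT. The CD8 list summed to 18.7 to 24.1 CPM in OFF, 21.7 to 28.8 CPM in ON and 19.6 to 20.5 CPM in WT. Among the NK cell genes, log2 fold changes in ON against WT were -0.54 for Ncr1, -1.08 for Klrb1c and 0.69 for Klrk1, none called. The 6 erythroid and platelet genes summed to at most 2.51 CPM in any library. Whether these cells contribute to the members' levels was not tested.

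The genes whose profile over the 6 libraries lay closest to each called member were found by the root mean square difference of centred log2(CPM + 1). For Tnfrsf4 they were Lad1 (0.12), Cd22 (0.13) and Hmgb2 (0.14), of 8878 protein-coding genes compared. Cd22 also stands in the B cell list, but ran against it in OFF against ON. There Cd22 was the 1 gene of the 10 with a log2 fold change below 0 (-0.73), and the other 9 lay above 0 (median of all 10, 1.03). Hmgb2 stood at 223 and 292 CPM in OFF, 602 and 425 CPM in ON and 138 and 113 CPM in WT, the same order of groups as Tnfrsf4. For Tnfrsf9 they were Nrp1 (0.23), Ptprj (0.29) and Ahnak (0.30), and Nrp1, also in the regulatory T cell list, stood at 33.3 and 54.4 CPM in OFF, 29.1 and 25.3 CPM in ON and 4.78 and 4.42 CPM in WT. For Tnfrsf18 they were Lpxn, Kifc1 and Cirbp (0.08 to 0.09), and for Tnfrsf1b Cdc25b, Trp53i11 and Rab19 (0.07 to 0.12). Among the ligands, Cd40lg lay closest to Tef, Rcan3 and Ankrd10 (0.02 to 0.04), Tnfsf8 to Tbc1d2b, Cmip and Wdr90 (0.02 to 0.04), Tnfsf11 to Atf6, Nlrx1 and Ggta1 (0.08 to 0.09) and Fasl to Rpa2, Fkbp2 and Tpi1 (0.08 to 0.09). With 6 libraries in 3 groups, many genes share a profile, and the closeness is a description.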

How the data were processed

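Total RNA of 6 sorted spleen CD4 T cell samples, 3 groups of 2, was sequenced on a NovaSeq and aligned to GRCm38, per the labels' protocols. R 3.6.2 and edgeR appear among the submitters' processing notes; for the aligner, counter, strand setting and annotation, no name was given in the sources used here. Raw counts per gene were deposited, and the 5 summary lines were left out. Of the table's reads, 36.4% and 39.0% in OFF, 43.2% and 46.9% in ON and 33.7% and 35.3% in WT were assigned to genes. Genes with a count numbered 24210 and 25061 in OFF, 29456 and 28288 in ON and 33138 and 30592 in WT. Both measures differed by group, and their part in the comparisons was not tested. Gene symbols came from GENCODE mouse release 21 (47310 of 47729 identifiers matched).

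Genes were kept by filterByExpr (minimum count 10, minimum total 15), which left 15780. Counts were scaled by TMM and tested with edgeR's quasi-likelihood test (edgeR 4.0.16, R 4.3.3, robust fit, legacy method off), 1 fit for all 6 libraries with 3 residual degrees of freedom. P-values were adjusted by Benjamini-Hochberg over all genes, and an adjusted p under 0.05 was called. OFF was set against ON, ON against WT and OFF against WT. CPM per kb uses the summed length of a gene's merged exons. Steps were tested on simulated data.

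The alternatives were RLE and upper quartile scaling, 2 other filters, DESeq2 1.42.0, limma-voom (limma 3.58.1), the groups compared alone, a replicate block and fits without each library in turn. After seeing the data, the older quasi-likelihood method and a crossed block were added. A group reduced to 1 library was assumed to have the spread of the other groups. Named genes were all members, their partner ligands and receptors, every called gene and the 2 most abundant genes of each related list, the 3 closest profiles per called member (mean CPM of at least 5, pseudocount 1), and Rbpj and Dtx1. Marker genes beside the members, and the rank order of levels, were named outside this rule. The members and lists were chosen with earlier results of these data known. Replicates differed by more than sampling noise, and not alike in the 3 groups. Chi-square per degree of freedom was 20.1 in OFF, 69.5 in ON and 9.90 in WT. The spread was still estimated in 1 fit over the 3 groups. In OFF against ON, WT libraries act on the filter, the scaling and the estimate of spread.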

Additional observations from a re-analysis of the deposited data

How the results depend on the processing

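Of the differences from WT, those of Tnfrsf4 in OFF and ON, of Tnfrsf9 in OFF and of Tnfrsf1b in ON kept their call under all 16 alternatives. The number of members called in OFF against ON was 1, with 2 in DESeq2 (Tnfrsf9 added), 0 in the fit of the 4 libraries compared, and 0 to 1 with a library left out (0 without WT 1 or WT 2). In ON against WT it was 7, and 2 to 7 with a library left out (4 without ON 1, 3 without WT 1, 2 without WT 2). In OFF against WT it was 5, and 2 to 5 with a library left out (3 without OFF 2, 2 without WT 1 or WT 2). The member called in OFF against ON without OFF 1 was Tnfrsf9, higher in OFF, in place of Tnfrsf4. The log2 fold changes there were 1.34 for Tnfrsf9 and -0.87 for Tnfrsf4. The cause of these changes in the counts was not tested.

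With the replicate number as a block, 0 members were called in OFF against ON, 4 in ON against WT and 3 in OFF against WT, and 60, 1441 and 663 genes in all. Same-numbered samples did not deviate together (correlations of -0.20, -0.21 and 0.08), so the numbers were not used to pair samples. A crossed block, with the OFF numbers exchanged, called 3, 7 and 6 members and 1210, 3755 and 2082 genes.

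Over all genes, 162 were called in OFF against ON (506 in DESeq2, 58 in the fit of 4 libraries, 67 to 619 with a library left out). In ON against WT it was 2342 (368 to 2397 with a library left out), and in OFF against WT 1078 (584 in limma-voom, 223 to 1602 with a library left out). Over all alternatives the calls among other receptors were 0 to 1, 0 to 6 and 0 to 4 in the 3 comparisons in that order, among other ligands 0, 0 to 3 and 0 to 3, among signalling genes 0 to 1, 0 to 8 and 0 to 2, and among NF-kB genes 0, 0 to 6 and 0 to 3. Regulatory T cell markers gave 0 to 2, 5 to 8 and 7 to 8 calls, memory and effector genes 0 to 6, 3 to 9 and 1 to 9, follicular helper genes 0 to 3, 2 to 4 and 2 to 5, B cell genes 0 to 3, 1 to 5 and 1 to 9, and myeloid genes 0 to 1, 1 to 6 and 2 to 7.

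Signs turned in comparisons that were never called. In OFF against ON these were Tnfrsf1b (-0.48 to 0.14 with a library left out), Cd27 (-0.20 to 0.034), Tnfsf11 (-0.056 to 0.42) and Tnf (-0.21 to 0.43). Tnf in ON against WT was 0.051 with no filter, 0.00025 with the crossed block and -0.14 to 0.16 with a library left out, and Tnf in OFF against WT was -0.19 to 0.45. Upper quartile scaling moved the median of all genes to -0.09 in ON against WT and -0.06 in OFF against WT. Tnfsf11, at 34 to 117 counts per library, has the widest counting error of the members.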
